A study of Mus musculus with 12 samples.

Results

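Hepatokines are proteins that the liver releases into the blood and that act on other tissues, and 9 genes of this kind were followed here in hepatocytes from steatotic mouse livers. The genes were chosen by name: the stress hormones Fgf21 and Gdf15, the angiopoietin-like genes Angptl2, Angptl4, Angptl6 and Angptl8, the fetuins Ahsg and Fetub, and the selenoprotein Selenop. Angptl2 was taken as the stromal relative of the group. They are 9 of the 52636 genes of the deposited table, and all 9 passed the filter on low values that left 16563 genes for testing.

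Levels were measured by RNA sequencing of polyA RNA in 12 libraries from 6 mice, 3 wild-type (WT) and 3 labelled as Ptprk knockout (KO). Ptprk encodes the receptor-type phosphatase PTPRK, and its reads were lower in KO libraries but not absent. Liver cells of each mouse were separated on a Percoll gradient by lipid content into fractions labelled low-fat and high-fat, so that each of the 4 groups of genotype and fraction holds 3 libraries. All groups come from livers described as steatotic. Strain, age, sex, diet, the design of the knockout allele and the tissues in which it acts are not given in the sources used here. Mice are named by genotype and replicate number, and the 2 libraries of a mouse share its number.

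Fgf21 is a hormone that the liver releases in fasting and under nutrient stress, and it signals through an FGF receptor joined to the co-receptor beta-Klotho. Gdf15 is a stress cytokine of the TGF-beta superfamily that lowers food intake through a receptor of the hindbrain. Angptl4 and Angptl8 regulate lipoprotein lipase, the enzyme that releases fatty acids from circulating triglyceride, in fasting and after feeding respectively. Fetuin-A, encoded by Ahsg, binds calcium phosphate and inhibits the insulin receptor, and Selenop carries selenium from the liver to other organs.

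Each library of the table sums to 20.01 M (M stands for mega), and values are given as reads per 20 M. The depth before that scaling was estimated at 15.1 to 25 M reads, where 3 reads correspond to 2.4 to 3.98 reads per 20 M. These limits cover counting error only. Ptprk lay between 2174 and 2883 reads per 20 M in the 6 WT libraries and between 1117 and 1364 in the 6 KO libraries. On the log2 scale KO minus WT was -1.13 for Ptprk among low-fat libraries (SE 0.09, limma adjusted p = 0.000982). Among high-fat libraries it was -0.98 (SE 0.09, limma adjusted p = 0.00448). The 8 hepatocyte markers summed to between 516869 and 595796 reads per 20 M in every library, and none of the 8 was called between fractions in the fit of 4 group means. All 8 had negative high-fat minus low-fat differences (median -0.152). With a term for each mouse 1 was called lower, where 3.8% of all tested genes were. It was Hnf4a, a transcription factor of hepatocyte identity, at -0.3 (limma adjusted p = 0.193 without the term and 0.0419 with it). The high-fat libraries also held more transcripts of other liver cells: 10 of 10 tested stellate and fibroblast markers (11 listed), 9 of 9 sinusoidal endothelial markers and 8 of 9 Kupffer cell and macrophage markers were called higher in the high-fat fraction, against 4.99% of all tested genes. The counts were 10, 9 and 9 with a term for each mouse, against 6.65% of all tested genes. Kupffer markers summed to 11426 and 9919 reads per 20 M in the high-fat libraries of WT mouse 1 and KO mouse 1, and to between 2109 and 2360 in the other 4. In bulk libraries such as these, fewer cells of a type and less RNA per cell cannot be told apart.

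The 9 genes covered a wide range of expression. Per kilobase of annotated exon, the mean level over the 12 libraries was 27000 reads per 20 M for Ahsg and 22400 for Selenop. Fetub followed at 3760 and Angptl8 at 1180. Angptl4 and Gdf15 lay side by side at 706 and 696, with ranges over libraries of 356 to 1270 and 167 to 1230, so that their order was not separated from their spread. Angptl6 had a mean of 221, Fgf21 of 74.8 and Angptl2 of 9.44 on the same scale. The place of Angptl8 rested on WT mouse 2, since its level per kilobase ran from 262 to 5410 over the libraries. That range overlapped those of Angptl4 and Gdf15, and also those of Fetub (2800 to 4440) and Angptl6 (131 to 349). The plot of levels by library shows these ranges without the correction for length.

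**Figure D1:**
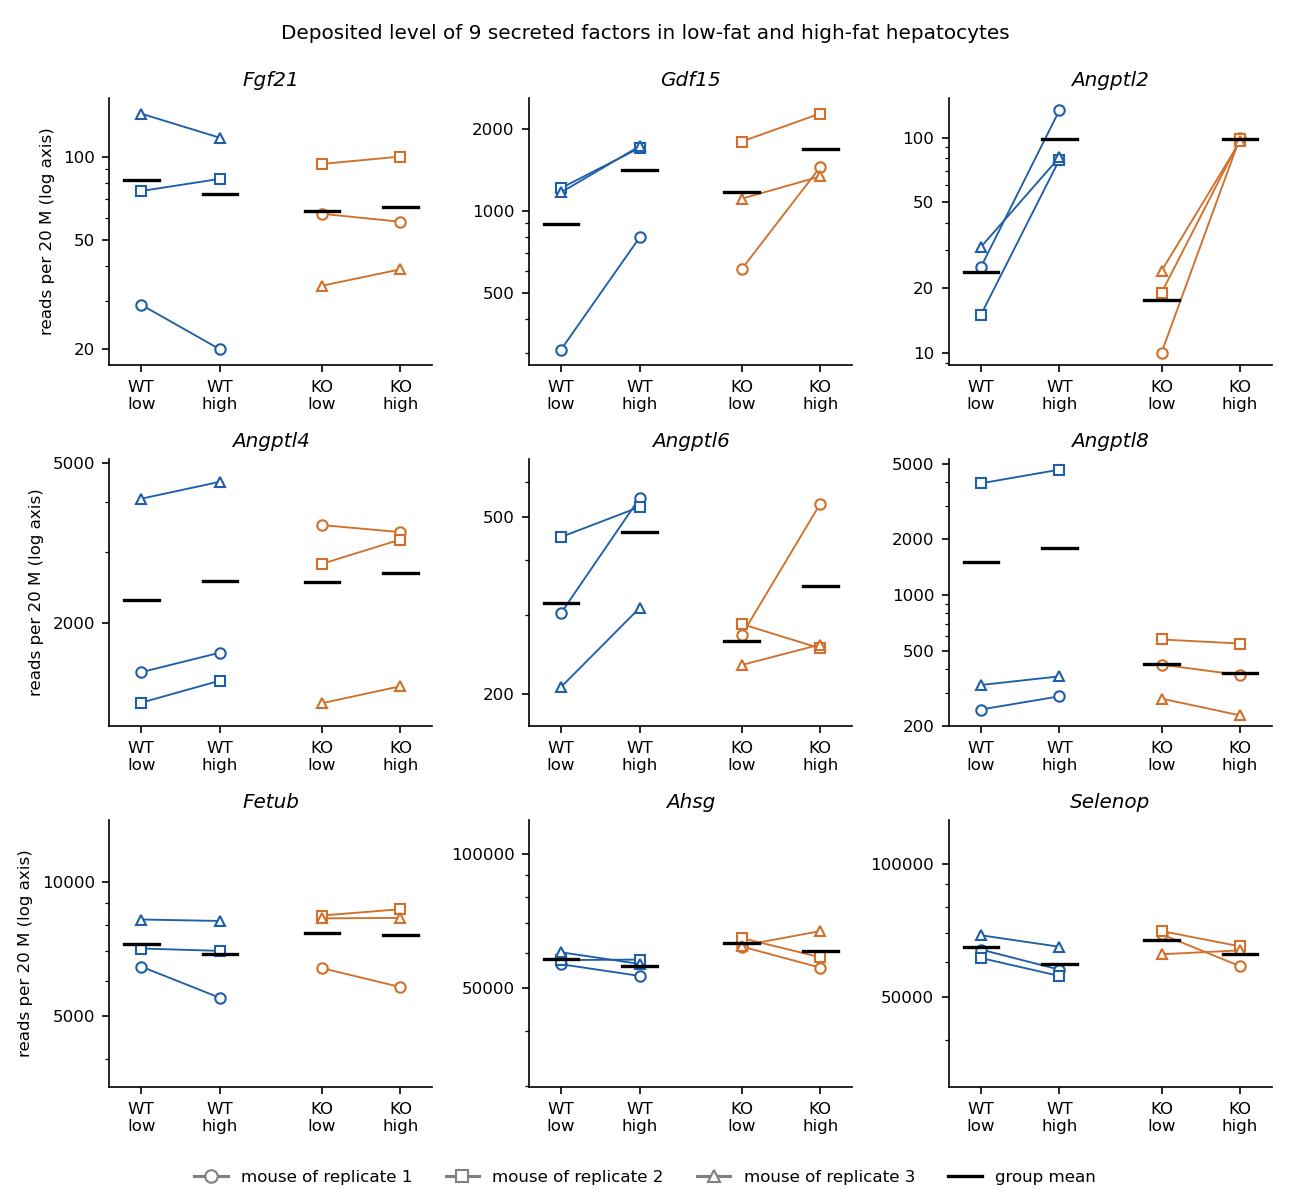
Level of each gene (reads per 20 M, log axis) in the 12 libraries by genotype and fat fraction, with 1 point per library, a line joining the 2 libraries of a mouse and a bar for the group mean of 3. Angptl2 lies at 10 to 31 in low-fat and 79 to 134 in high-fat libraries, and the 2 Angptl8 libraries of WT mouse 2 (3957 and 4682) stand far above the other 10.

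In the GENCODE M21 annotation (GRCm38), which was joined by Ensembl identifier, all 9 are protein-coding. Fgf21 (ENSMUSG00000030827) is found on chromosome 7 (bases 45613886 to 45615490, minus strand), and Gdf15 (ENSMUSG00000038508) on chromosome 8 (bases 70629393 to 70632456, minus strand). Angptl2 (ENSMUSG00000004105) lies on chromosome 2 (bases 33216069 to 33247717, plus strand) and Angptl4 (ENSMUSG00000002289) on chromosome 17 (bases 33773750 to 33781830, minus strand). Chromosome 9 holds both Angptl6 (ENSMUSG00000038742, bases 20873808 to 20879727, minus strand) and Angptl8 (ENSMUSG00000047822, bases 21835510 to 21837347, plus strand). Selenop (ENSMUSG00000064373) lies on chromosome 15 (bases 3268547 to 3280508, plus strand). The fetuin genes are neighbours on the plus strand of chromosome 16, Ahsg (ENSMUSG00000022868) from 22891277 to 22899449 and Fetub (ENSMUSG00000022871) from 22918334 to 22939778, with 18884 bases between them. Exons of 3 members overlap exons of a gene on the opposite strand: Angptl6 shares 265 bases (16.8% of its exons) with A230050P20Rik, Selenop 439 bases (15.4%) with Ccdc152, and Ahsg 62 bases (2.82%) with Gm30505. Whether the counting used strand is not given in the sources used here, so reads of these overlaps cannot be told apart.

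Promoter windows are shown for Angptl2 and Gdf15, which were higher in the high-fat fraction of every mouse, and for Fgf21 and Angptl8, which varied most between mice. Each window holds the 250 bases before a gene start of RefSeq (GRCm38.p6), whose table held 8 of the 9 genes, and is printed 5′ to 3′ on the strand of the gene. The windows are chr2:33215711-33215960 (plus strand) for Angptl2, chr8:70632457-70632706 (minus strand) for Gdf15, chr7:45615491-45615740 (minus strand) for Fgf21 and chr9:21835260-21835509 (plus strand) for Angptl8. Capitals mark matches to 2 motifs searched on both strands, TGATGNAA (the C/EBP-ATF composite element, which ATF4 binds) and CACGTG (an E-box).
Angptl2: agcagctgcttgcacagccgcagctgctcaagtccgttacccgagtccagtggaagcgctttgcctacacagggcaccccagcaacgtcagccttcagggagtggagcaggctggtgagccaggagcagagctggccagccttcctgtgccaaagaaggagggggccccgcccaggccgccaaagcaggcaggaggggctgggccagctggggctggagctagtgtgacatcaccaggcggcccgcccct
Gdf15: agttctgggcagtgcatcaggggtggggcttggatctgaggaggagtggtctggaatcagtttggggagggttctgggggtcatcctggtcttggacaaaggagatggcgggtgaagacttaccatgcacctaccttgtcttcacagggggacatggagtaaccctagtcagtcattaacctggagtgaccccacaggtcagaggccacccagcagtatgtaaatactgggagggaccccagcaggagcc
Fgf21: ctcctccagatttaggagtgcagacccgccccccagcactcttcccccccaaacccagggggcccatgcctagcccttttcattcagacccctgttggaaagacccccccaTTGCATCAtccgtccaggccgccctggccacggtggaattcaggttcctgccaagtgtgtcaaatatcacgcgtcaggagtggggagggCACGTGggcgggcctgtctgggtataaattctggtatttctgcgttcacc
Angptl8: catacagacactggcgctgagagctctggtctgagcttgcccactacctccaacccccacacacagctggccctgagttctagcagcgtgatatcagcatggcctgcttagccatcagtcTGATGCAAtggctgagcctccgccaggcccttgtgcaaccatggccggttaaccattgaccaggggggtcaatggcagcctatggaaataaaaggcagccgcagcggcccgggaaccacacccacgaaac
Counted back from the start, the Fgf21 window held TTGCATCA from -139 to -132, which is TGATGNAA on the other strand, and CACGTG from -50 to -45. The Angptl8 window held TGATGCAA from -130 to -123. Of all 32851 RefSeq promoter windows of this length, 3.45% held TGATGNAA and 6.02% CACGTG. The 2 motifs did not overlap in these windows. The Angptl2 window and the Gdf15 window printed held neither, which says only that these letters are not in them. RefSeq gives Gdf15 a second start, whose window (chr8:70632096-70632345, minus strand, not printed) held CACGTG from -83 to -78.

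Angptl2 had the largest difference between fractions of the 9 genes. Angptl2 is a secreted glycoprotein known for expression in adipose and stromal tissue and for a role in inflammation. It read 25, 15 and 31 reads per 20 M in WT low-fat replicates 1 to 3 and 134, 79 and 81 in the WT high-fat replicates. In KO mice it read 10, 19 and 24 in low-fat and 100, 98 and 96 in high-fat libraries. All 6 high-fat libraries lay above all 6 low-fat libraries.

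Ratios within mice were taken after rescaling between libraries and adding 2 to each value. Within WT mice 1 to 3 the high-fat library held 4.62, 4.72 and 2.35 times the low-fat level of Angptl2. Within KO mice 1 to 3 it held 7.37, 4.79 and 3.79 times that level. All 6 are smaller than the ratios of the deposited values, most so in KO mouse 1 (10 and 100 reads per 20 M). Over both genotypes the log2 difference was 2.12 (SE 0.24, limma adjusted p = 0.00218), and Angptl2 was the only one of the 9 genes called, 1 of 9 against 4.99% of all tested genes called higher. With a term for each mouse the limma adjusted p was 0.00271 (SE 0.19). Its difference was positive in 6 of 6 mice, which gives the exact two-sided sign-flip test its smallest possible p of 0.0312. Leaving out each library in turn gave log2 differences of 1.97 to 2.24 and limma adjusted p-values of 0.00322 to 0.00886.

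**Figure D2:**
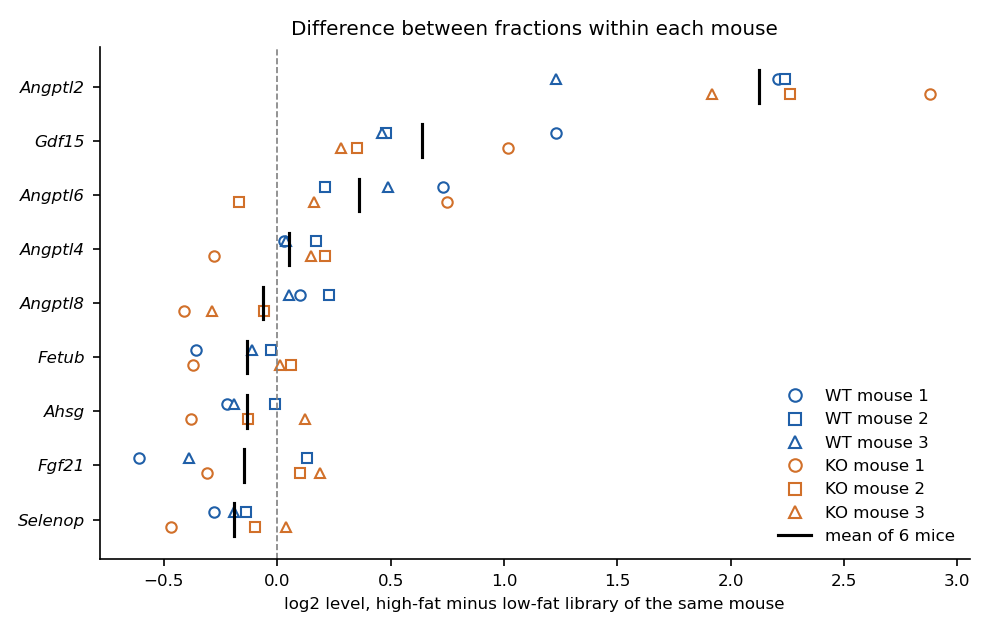
High-fat minus low-fat difference in log2 level for each gene, with 1 point per mouse (WT blue, KO orange) and a bar for the mean of 6 mice. Angptl2 and Gdf15 lie above 0 in 6 of 6 mice, and Angptl8 lies above 0 in 3 of 3 WT mice and below 0 in 3 of 3 KO mice.

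By genotype, the fraction difference of Angptl2 was 2.36 in KO mice (SE 0.33, limma adjusted p = 0.0317), where 0.851% of tested genes were called higher. That call was lost without any 1 of 5 of the 6 KO libraries (limma adjusted p = 0.0575 to 0.159) and held without KO low-fat replicate 3 (limma adjusted p = 0.0429). It was 1.89 in WT mice (SE 0.33, limma adjusted p = 0.0741), where 0% of tested genes were called in either direction. With a term for each mouse Angptl2 was called in both genotypes, at a limma adjusted p of 0.0479 in WT (0.7% of tested genes called higher) and 0.0218 in KO mice (1.71%). The difference between the genotypes' fraction differences was 0.46 (SE 0.47, limma adjusted p = 1), where 0% of tested genes were called.

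Angptl2 followed the markers of stellate cells and fibroblasts from library to library. Those 11 markers summed to 609, 288 and 725 reads per 20 M in WT low-fat replicates 1 to 3 and 3861, 2227 and 2567 in the WT high-fat replicates. They summed to 153, 553 and 671 in KO low-fat and 3006, 3064 and 2589 in KO high-fat replicates. The library with the lowest Angptl2, KO low-fat replicate 1, also had the lowest marker sum, and the library with the highest, WT high-fat replicate 1, had the highest. The match was not particular to this list. The same 2 libraries were lowest and highest for endothelial sums (1376 and 16657) and for Kupffer sums (470 and 11426). Among the stellate and fibroblast markers, Acta2 read 0 in 2 libraries and Des in 1, and Dcn, Col3a1, Lrat and Rgs5 were above 0 in all 12.

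The median log2 difference of the stellate and fibroblast list was 2.49, that of the endothelial list 1.74 and that of the Kupffer list 2.24, beside -0.0422 over all tested genes. Summed endothelial markers ran from 1376 to 3440 reads per 20 M in low-fat and from 5507 to 16657 in high-fat libraries, and summed Kupffer markers from 470 to 1341 and from 2109 to 11426. The part of these cells in the Angptl2 difference was not tested. In a fit with a term for each mouse and without both mice numbered 1, added after seeing the Kupffer sums, Angptl2 differed by 1.93 (limma adjusted p = 0.000245). That fit called 900 genes higher and 329 lower.

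**Figure D3:**
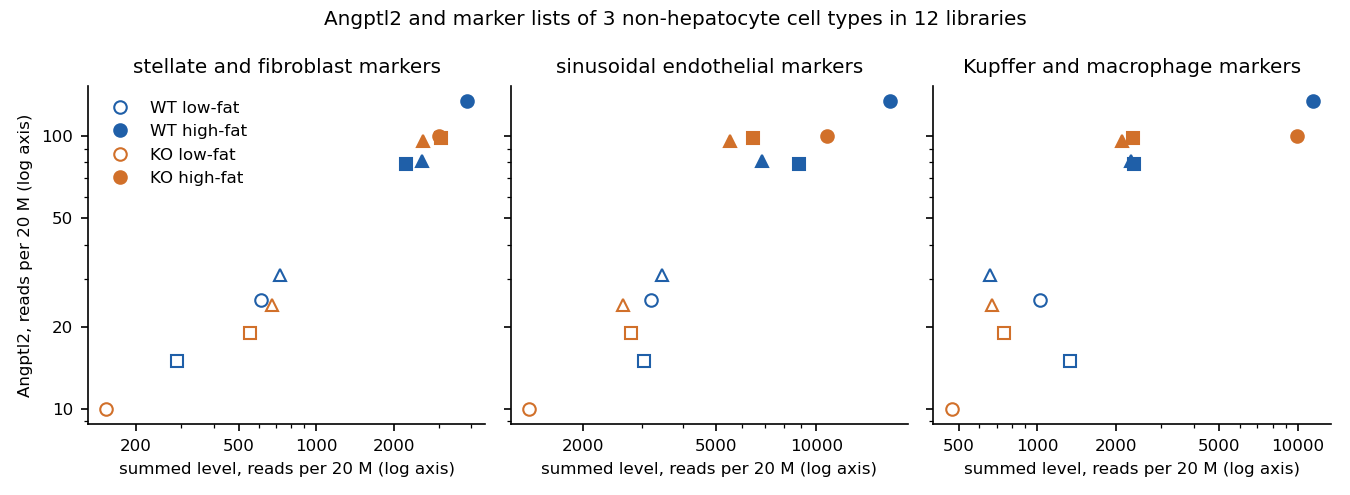
Angptl2 level against the summed level of stellate and fibroblast, sinusoidal endothelial, and Kupffer and macrophage markers (reads per 20 M, log axes), with 1 point per library and circles, squares and triangles for mice 1, 2 and 3. Low-fat libraries (Angptl2 at 10 to 31, open) and high-fat libraries (79 to 134, filled) do not overlap on any of the 3 marker axes.

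Among tested genes whose mean over libraries reached 100 reads per 20 M, those most like Angptl2 over the 12 libraries were Abcc9, which encodes a subunit of potassium channels, Rgs5, a regulator of G protein signalling, and Tgfbr3, a co-receptor of TGF-beta. Because low-fat and high-fat libraries form separate clusters, Pearson's r is given within the 6 libraries of each fraction, as a description. It was 0.973 and 0.861 for Abcc9 in low-fat and high-fat libraries, 0.983 and 0.611 for Rgs5, and 0.966 and 0.865 for Tgfbr3. Rgs5 is itself on the stellate and fibroblast list and differed between fractions by 2.51 (SE 0.25, limma adjusted p = 0.00218). Angptl2 lies inside Ralgps1 on the opposite strand and shares 0 exon bases with it. Ralgps1, which no rule named, differed by -0.19 (SE 0.23, limma adjusted p = 0.703).

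The angiopoietin family and receptors formed a list of 12 further genes, of which 10 were tested and 3 were called. All 3 were higher in the high-fat fraction, where 4.99% of all tested genes were called higher. The fit with a term for each mouse called 3 higher and 1 lower, beside 6.65% and 3.8% of all tested genes. The 1 called lower was the integrin subunit gene Itga5, which the naming rule does not cover, at -0.24 (limma adjusted p = 0.441 without the term and 0.0215 with it). Tie1, an endothelial receptor of the angiopoietin system, rose by 1.37 (SE 0.2, limma adjusted p = 0.00329), and Tek, the angiopoietin receptor, by 1.49 (SE 0.27, limma adjusted p = 0.00898). Itgb3, an integrin subunit, rose by 1.78 (SE 0.29, limma adjusted p = 0.00474). Tie1 read 116 ± 25.6 (SD, n = 3) reads per 20 M in WT low-fat and 338 ± 157 in WT high-fat libraries, and 87 ± 8.89 and 247 ± 92.1 in KO. The median log2 difference of the 10 tested was 0.582. The endothelial marker sums rose between the same libraries, and their part in these 3 calls was not tested.

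Gdf15 was the other gene whose high-fat level exceeded the low-fat level in each of the 6 mice. It read 309, 1210 and 1167 reads per 20 M in WT low-fat replicates 1 to 3 and 797, 1700 and 1724 in the WT high-fat replicates. Levels in KO mice were 610, 1793 and 1106 in low-fat and 1446, 2273 and 1335 in high-fat libraries. The groups overlapped in both genotypes: the high-fat level of WT mouse 1 lay below the low-fat levels of WT mice 2 and 3, and the high-fat levels of KO mice 1 and 3 below the low-fat level of KO mouse 2.

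For Gdf15 too, ratios within mice were taken after rescaling between libraries and adding 2 to each value. The high-fat library held 2.35, 1.39 and 1.38 times the low-fat level of Gdf15 in WT mice 1 to 3. In KO mice 1 to 3 it held 2.02, 1.28 and 1.21 times that level. Over both genotypes the log2 difference was 0.64. It was not called across the 4 groups (SE 0.37, limma adjusted p = 0.382) and was called with a term for each mouse (SE 0.13, limma adjusted p = 0.0172), where 6.65% of tested genes were called higher. With that term it was called without any 1 mouse, with log2 differences of 0.51 to 0.7 and limma adjusted p-values of 0.00818 to 0.0472. The exact sign-flip p over 6 mice was 0.0312, the smallest this test can give.

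The 2 largest within-mouse differences of Gdf15 were in WT mouse 1 and KO mouse 1, whose high-fat libraries had the highest Kupffer marker sums. A fit without both of these mice, with a term for each mouse, was added after seeing the Kupffer sums. The Gdf15 difference was then 0.41 (limma adjusted p = 0.00182), in a fit that called 900 genes higher and 329 lower. In the 4 mice left, Kupffer sums were 658 to 1341 reads per 20 M in low-fat and 2109 to 2360 in high-fat libraries. The part of other cells in the Gdf15 difference was not tested. In the separate genotypes the difference was 0.72 in WT mice (limma adjusted p = 0.604, and 0.0945 with a term for each mouse) and 0.55 in KO mice (limma adjusted p = 0.937, and 0.191). The genes most like Gdf15 were 9430038I01Rik, Gm4756 and Slc16a12, at a Pearson r of 0.952, 0.942 and 0.96 in the 6 low-fat libraries and of 0.957, 0.94 and 0.846 in the 6 high-fat libraries.

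Gdf15 is a target of the integrated stress response, in which the transcription factor ATF4 turns on genes of amino acid supply and cell stress. Of 16 other genes of that response 15 were tested, and 0 were called between fractions (limma, with 3 lower and 0 higher at an unadjusted p under 0.05). Of the 15, 5 were higher and 10 lower in the high-fat fraction, with a median log2 difference of -0.101. Atf4 itself differed by -0.23 (SE 0.1, limma adjusted p = 0.228). With a term for each mouse it was the only one of the list called, and it was lower (limma adjusted p = 0.0393). Of all tested genes 3.8% were called lower with that term. The immediate early genes, which cell isolation can raise, had 0 of 10 tested called (11 listed, 0 at an unadjusted p under 0.05) and a median of 0.046.

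Fgf21 did not separate the groups, and its spread lay between mice. It read 29, 75 and 143 reads per 20 M in WT low-fat replicates 1 to 3 and 20, 83 and 117 in the WT high-fat replicates. In KO mice it read 62, 94 and 34 in low-fat and 58, 100 and 39 in high-fat libraries. Within a mouse the high-fat level was 0.65 to 1.14 times the low-fat level, while the highest mouse had 5.31 times the level of the lowest.

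The high-fat minus low-fat difference of Fgf21 was -0.15 (SE 0.49, limma adjusted p = 0.898), with 3 mice higher and 3 lower (exact sign-flip p = 0.344). Its SD between mice was 0.88 on the log2 scale, and its SD of the within-mouse difference 0.33. The counting error of the within-mouse differences was 0.169 to 0.394, as an SE on the log2 scale. Of all tested genes, 98.3% had a smaller SD between mice and 66.4% a smaller SD of the within-mouse difference. The gene most like Fgf21 was Cdc42ep4, at a Pearson r of 0.924 and a Spearman rho of 0.937 over the 12 libraries and an r of 0.838 without the 2 libraries farthest from the Fgf21 median, both of WT mouse 1. Gprin3 and 4930481A15Rik followed at an r of 0.893 and 0.882.

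The genes through which Fgf21 is made and sensed formed a list of 12, with 11 tested. Of the 11, 3 were higher and 8 lower in the high-fat fraction, and 2 receptor genes among the 8 were called. Fgfr2 fell by 0.73 on the log2 scale (SE 0.11, limma adjusted p = 0.00393), and Fgfr4, the main FGF receptor of hepatocytes, fell by 0.34 (SE 0.07, limma adjusted p = 0.0125). Fgfr2 read 1012 ± 93.5 (SD, n = 3) and 649 ± 36.7 reads per 20 M in WT low-fat and high-fat libraries, and 1563 ± 255 and 982 ± 210 in KO. These were the 2 called of the 11, none being called higher, where 0.773% of all tested genes were called lower. Fgfr1 differed by -0.68 and was called with a term for each mouse (limma adjusted p = 0.0668 without the term and 0.00553 with it), and 5 of the 11 were then called lower, beside 3.8% of all tested genes. The median log2 difference of the 11 was -0.189.

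Fgf21 and Angptl4 are also known targets of PPAR-alpha, the nuclear receptor of fatty acid oxidation, and stood on a list of 15 of its targets. Of those, 0 were called (4 higher and 0 lower at an unadjusted p under 0.05 in limma), 10 were higher and 5 lower in the high-fat fraction, and the median log2 difference was 0.0731. With a term for each mouse 4 were called, all higher, where 6.65% of all tested genes were called higher. The 4 included Vnn1, a pantetheinase, at 0.56 (limma adjusted p = 0.134 without the term and 0.0054 with it), and Pdk4, a kinase that restrains glucose oxidation, at 0.71 (limma adjusted p = 0.121 and 0.0388). Fabp1, the fatty acid binding protein of hepatocytes, differed by 0.3 and was not called in either fit (limma adjusted p = 0.076 and 0.0611). It was called under the deposited scaling alone, at 0.37 (limma adjusted p = 0.00982), and without KO low-fat replicate 1, at 0.35 (limma adjusted p = 0.0452).

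Angptl4, which blocks lipoprotein lipase in fasting, likewise differed between mice and not between fractions. It read 1505, 1263 and 4080 reads per 20 M in WT low-fat replicates 1 to 3 and 1683, 1433 and 4495 in the WT high-fat replicates. Levels in KO mice were 3505, 2805 and 1259 in low-fat and 3366, 3226 and 1388 in high-fat libraries. WT mouse 3, KO mouse 1 and KO mouse 2 were high in both fractions, and the other 3 mice low in both.

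The fraction difference of Angptl4 was 0.05 (SE 0.41, limma adjusted p = 0.958), and with a term for each mouse its SE fell to 0.07 (limma adjusted p = 0.66). Its SD between mice was 0.76, above that of 97.0% of tested genes, and 4.22 times the SD of its within-mouse difference, where the median ratio over tested genes was 0.72. The genes most like Angptl4 were Nfkbia, an inhibitor of NF-kappa-B, Cep85l and Il6ra, at a Pearson r of 0.964, 0.956 and 0.937 over 12 libraries. Without the 2 libraries of WT mouse 3 those values were 0.95, 0.933 and 0.958.

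**Figure D4:**
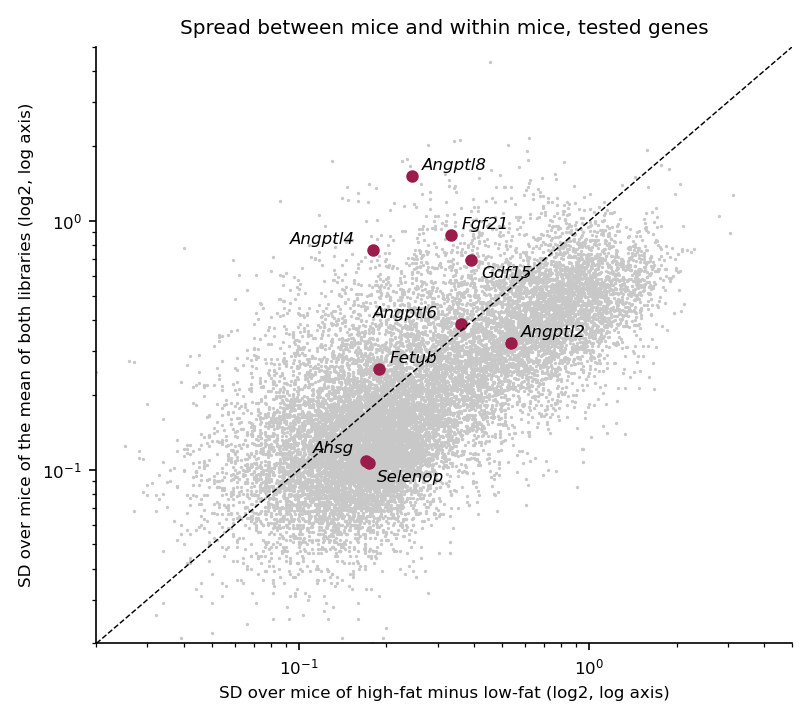
SD over 6 mice of the mean log2 level of both libraries (vertical) against the SD of the high-fat minus low-fat difference (horizontal), on log axes, for the tested genes (grey) and the 9 genes (red), with a dashed line where both are equal. Angptl8, Fgf21, Angptl4 and Gdf15 (SD between mice 0.7 to 1.51) lie well above the line, and Angptl2, Ahsg and Selenop below it.

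Angptl8, a feeding-induced regulator of lipoprotein lipase, had the widest spread between mice of the 9 genes. It read 244, 3957 and 330 reads per 20 M in WT low-fat replicates 1 to 3 and 287, 4682 and 367 in the WT high-fat replicates. KO mice had 424, 578 and 279 in low-fat and 373, 550 and 227 in high-fat libraries. Both libraries of WT mouse 2 stood far above the other 10, and those 10 lay between 227 and 578.

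The highest mouse had 17.1 times the Angptl8 level of the lowest. The SD between mice was 1.51 on the log2 scale, above that of 99.9% of tested genes, and 6.17 times the SD of the within-mouse difference. The nearest genes, Map3k13, Lrig2 and Gm38357, had a Pearson r of 0.914, 0.897 and 0.891 over the 12 libraries. Without the 2 libraries of WT mouse 2 these fell to 0.528, 0.22 and 0.479, so the likeness rested on that mouse. Angptl8 lies inside Dock6 on the opposite strand, and its exons share 0 bases with those of Dock6.

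Within mice, Angptl8 moved in opposite directions in the 2 genotypes. The high-fat minus low-fat log2 difference was 0.1, 0.23 and 0.05 in WT mice 1 to 3 and -0.41, -0.06 and -0.29 in KO mice 1 to 3. The counting error of these differences was 0.117, 0.0302 and 0.103 in the WT mice and 0.102, 0.0818 and 0.135 in the KO mice, as an SE on the log2 scale. WT mice 1 and 3 and KO mouse 2 therefore lay within 1 SE of 0. Each mouse kept its direction under the 3 scalings tried, and 0.561% of tested genes showed 3 WT and 3 KO mice moving in opposite directions.

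The WT and KO means of that difference were 0.13 ± 0.09 and -0.25 ± 0.18 (SD, n = 3 mice). The exact two-sided permutation p for their difference was 0.1, the value that any 3 mice against 3 without overlap give, so it adds nothing to the directions. The interaction was -0.38 (SE 1.53, limma adjusted p = 1), and with a term for each mouse its SE was 0.13 and its limma adjusted p again 1. The fraction difference over both genotypes was -0.06 (SE 0.76, limma adjusted p = 0.975).

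The lipoprotein lipase axis held 13 genes, Angptl4 and Angptl8 among them, all tested, with 1 called higher and 1 lower in the high-fat fraction and a median of -0.0618. Of all tested genes 4.99% were called higher and 0.773% lower. Gpihbp1, the endothelial protein that anchors the lipase in capillaries, rose by 1.4 (SE 0.26, limma adjusted p = 0.00943), from 98 ± 30.5 (SD, n = 3) to 279 ± 170 reads per 20 M in WT mice and from 54.3 ± 5.69 to 172 ± 64.2 in KO mice. Apoc2, the activator of the lipase, fell by 0.37 (SE 0.1, limma adjusted p = 0.0462), a call that was lost without any 1 of 8 of the libraries (limma adjusted p = 0.0807 to 0.126) and without the filter on low values (limma adjusted p = 0.0675). Lpl itself differed by 1.4 and was called with a term for each mouse (limma adjusted p = 0.0768 without the term and 0.0031 with it). Endothelial and macrophage marker sums rose between the same libraries, and their part in the differences of Gpihbp1 and Lpl was not tested.

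Angptl6, also named angiopoietin-related growth factor and known as a secreted liver protein, was higher in the high-fat fraction of 5 of 6 mice. It read 304, 451 and 207 reads per 20 M in WT low-fat replicates 1 to 3 and 552, 527 and 312 in the WT high-fat replicates. In KO mice it read 271, 287 and 232 in low-fat and 536, 253 and 258 in high-fat libraries. The fractions overlapped in both genotypes, and KO mouse 2 was the mouse that was lower.

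The mean within-mouse difference of Angptl6 was 0.36 ± 0.36 (SD, n = 6 mice) on the log2 scale (exact sign-flip p = 0.0938). Neither fit called it (limma adjusted p = 0.384, and 0.092 with a term for each mouse). With that term it was called only without KO mouse 2, at 0.46 (limma adjusted p = 0.0244). The largest differences were again in WT mouse 1 and KO mouse 1, and without both mice the value was 0.19 (limma adjusted p = 0.289, with a term for each mouse). Over the 12 libraries its Pearson r was -0.875 with Fetub, -0.817 with Ahsg and -0.871 with Selenop, as a description of libraries that share mice and scaling. The genes most like it were Cdk11b, Snx11 and Klc1, at an r of 0.939, 0.923 and 0.922.

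The abundant plasma proteins varied little. Ahsg read 56506, 57743 and 60128 reads per 20 M in WT low-fat replicates 1 to 3 and 53188, 57888 and 56604 in the WT high-fat replicates. It read 61952, 64740 and 62229 in KO low-fat and 55522, 58587 and 67118 in KO high-fat replicates. The 3 KO low-fat libraries lay above the 3 WT low-fat libraries in these deposited values but not after rescaling between libraries, and the high-fat groups overlapped.

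Selenop read 64085, 61330 and 69010 reads per 20 M in WT low-fat replicates 1 to 3 and 57731, 55865 and 65012 in the WT high-fat replicates. Levels in KO mice were 69379, 70544 and 62528 in low-fat and 58778, 65134 and 63818 in high-fat libraries. In 5 of 6 mice its high-fat level was the lower one, KO mouse 3 being the exception, and the fractions overlapped.

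Fetub, which encodes fetuin-B, a liver-made protease inhibitor needed for fertilization, read 6459, 7096 and 8249 reads per 20 M in WT low-fat replicates 1 to 3 and 5494, 7009 and 8188 in the WT high-fat replicates. KO mice had 6410, 8422 and 8298 in low-fat and 5808, 8702 and 8320 in high-fat libraries. Mouse 1 of each genotype had the lowest level in both fractions.

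The fraction differences of these 3 genes were small. They were -0.14 for Ahsg (SE 0.1, limma adjusted p = 0.514), -0.19 for Selenop (SE 0.11, limma adjusted p = 0.372) and -0.13 for Fetub (SE 0.15, limma adjusted p = 0.67). Exact sign-flip p-values over 6 mice were 0.0938, 0.0625 and 0.188. The median of the 8 hepatocyte markers was -0.152 in the same libraries. The highest mouse had 1.18 times the lowest for Ahsg and 1.16 times for Selenop, against 1.43 times for Fetub. Ahsg and Selenop followed each other over the 12 libraries at a Pearson r of 0.827.

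The genes nearest in pattern differed among the 3. For Ahsg they were Ttr, Nicn1 and Tfr2, at a Pearson r of 0.928, 0.922 and 0.912, for Fetub Bche, Gk and Hipk3, at 0.971, 0.971 and 0.97, and for Selenop Hrg and Gc, at 0.953 and 0.952, all over 12 libraries. The relatives of the fetuins formed a list of 6 with 5 tested, of which 0 were called (limma, with 1 lower and 0 higher at an unadjusted p under 0.05). Hrg and Kng1, both plasma proteins with cystatin domains like the fetuins, differed by -0.15 and -0.26 (limma adjusted p = 0.407 and 0.229). Of 18 genes of selenium handling 17 were tested and 0 called (1 higher and 2 lower at an unadjusted p under 0.05), with 14 of 17 lower in the high-fat fraction and a median of -0.0493. Scly, the lyase that recovers selenium from selenocysteine, differed by -0.19 (limma adjusted p = 0.182).

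Across the 9 genes, 2 (Angptl2 and Gdf15) were higher in the high-fat library of all 6 mice, where 9.74% of tested genes were, and 0 were lower in all 6, where 11.7% were. In WT mice the high-fat libraries did not overlap and lay above the low-fat libraries for 1 of the 9, Angptl2, beside 9.1% of tested genes. In KO mice the same held for 1 of the 9, again Angptl2, beside 7.72%.

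Knockout of Ptprk was not accompanied by a called change in any of the 9 genes. In both the low-fat and the high-fat comparison 0 of 9 were called, where 0.00604% of tested genes were called in low-fat and 0.00604% in high-fat libraries, in each case 1 gene, Ptprk. After rescaling between libraries, KO and WT values overlapped for all 9 genes in both fractions, where 5.44% of tested genes did not overlap in low-fat and 4.92% in high-fat libraries. The low-fat and the high-fat comparison use libraries of the same mice.

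For Ahsg the KO minus WT log2 difference was 0.13 in both fractions (SE 0.15 in low-fat, limma adjusted p = 1 in both), and the exact permutation p in low-fat libraries was 0.3. The differences of the other 8 lay between -0.73 and 0.5 in low-fat and between -1.11 and 0.33 in high-fat libraries, with a limma adjusted p of 1 throughout. Exact permutation p-values for the 9 genes lay between 0.3 and 0.9 in low-fat and between 0.2 and 1.0 in high-fat libraries, where 3 libraries against 3 cannot go below 0.1.

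The SE sets what these comparisons could show. For Angptl8, with differences of -0.73 (SE 1.08) in low-fat and -1.11 in high-fat libraries, the direction came from WT mouse 2. Without its low-fat library the difference was 0.5, and without its high-fat library 0.17. For Gdf15 the differences were 0.5 (SE 0.53) and 0.33, for Fgf21 -0.2 (SE 0.69) and 0.08, and for Angptl4 0.24 (SE 0.58) and 0.18. For Angptl2 they were -0.4 (SE 0.33) and 0.07, for Angptl6 -0.21 (SE 0.3) and -0.43. Selenop and Fetub had differences of 0.07 (SE 0.15) and 0.09 (SE 0.21) in low-fat libraries, so only changes well above these errors were detectable.

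**Figure D5:**
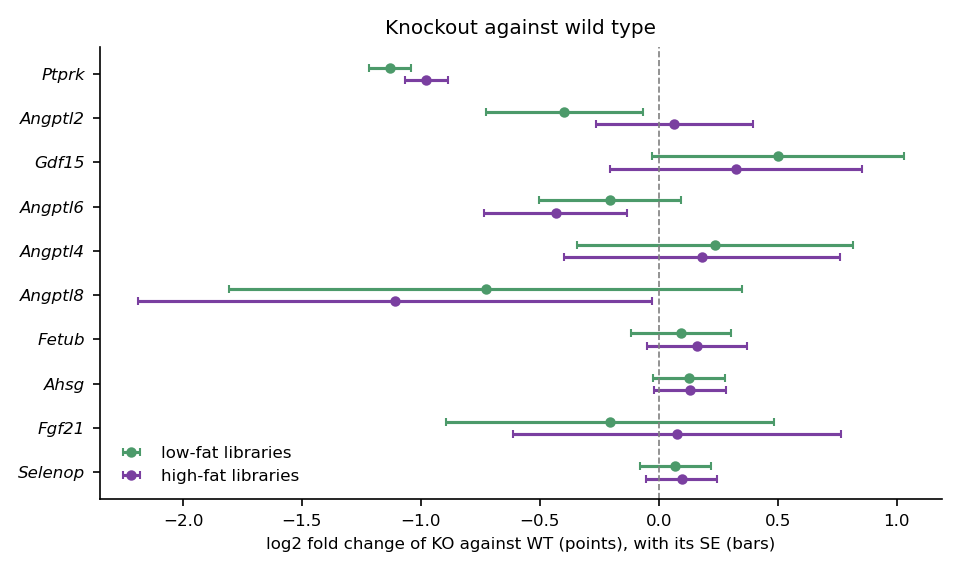
KO minus WT difference in log2 level of each gene in low-fat (green) and high-fat (purple) libraries, with the SE of the limma fit as error bars (3 libraries per group). The 9 genes lie between -1.11 and 0.5 with no call, and Ptprk lies at -1.13 and -0.98.

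Other liver-secreted factors formed a list of 16 genes, all tested, with a median of 0.00305. Beside 4.99% and 0.773% of all tested genes called higher and lower in the high-fat fraction, 1 gene of the list was called higher and 0 lower. The gene was Lect2, a hepatokine linked to insulin resistance, which rose by 0.72 (SE 0.16, limma adjusted p = 0.0209), from 965 ± 259 (SD, n = 3) to 1581 ± 171 reads per 20 M in WT mice and from 847 ± 215 to 1495 ± 165 in KO mice. The call was lost without WT high-fat replicate 2, KO low-fat replicate 1 or KO high-fat replicate 2 (limma adjusted p = 0.0531 to 0.058). With a term for each mouse 2 of the 16 were called higher and 4 lower, beside 6.65% and 3.8% of all tested genes. Among the 4 was Smoc1, a secreted protein tied to glucose control, at -0.32 (limma adjusted p = 0.171 without the term and 0.0242 with it). No gene of this list or of the 12 other pathway lists was called for the knockout in either fraction.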

How the data were processed

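RNA sequencing libraries of polyA RNA came from low-fat and high-fat hepatocyte fractions of 3 WT and 3 Ptprk KO mice, with groups taken from the labels. The deposited table holds a score: read counts per gene that the authors scaled to 20 M (mega) per library and rounded up, as read from the values, since each library sums to 20.01 M. The submitters' processing notes name the build mm9. Aligner, counter, annotation, strandedness and filters are not given in the sources used here. Of the identifiers, 99.6% are in GENCODE M21 (GRCm38), the source of coordinates and exon lengths, which are not mm9.

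A minimum of 10 in 3 or more libraries left 16563 genes, which were rescaled by the trimmed mean of M values (factors 0.928 to 1.09) and tested on log2(value + 2), a scale that understates changes of low genes. limma 3.58.1 in R 4.3.3 fitted 4 group means over 12 libraries, with a variance trend, two-sided p-values and Benjamini-Hochberg adjustment over all tested genes. Called means an adjusted p under 0.05. Single genes were also tested with exact sign-flip and permutation tests that went through every arrangement (Python 3.11.15), unadjusted. The fit and the depth estimate were tested on simulated data, where the depth factor erred by at most 1.24% in 22 libraries, most where it lay close to 1.

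The labels name the mouse of each library, so the 2 fractions of a mouse are paired, and a second fit had a term for each mouse. Deviations from group means correlated within WT mice (mean r 0.516) and KO mice (0.162) more than between mice (-0.258 and -0.0747). The KO mean rested on KO mouse 3, with an r of 0.0405, -0.0116 and 0.458 in KO mice 1 to 3. Deviations from a group mean sum to 0, which ties the values between mice to those within mice. Replicates of a group are different mice.

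The members and lists were chosen with earlier results of these data known. Named genes are the 9 members, Ptprk, the 3 genes of each list with the smallest p between fractions (and any called), and for each member the 3 genes of highest Pearson r among those averaging 100 or more reads per 20 M. Not every gene that this rule allows is named, and 1 gene nearest to a member is not reported here. Alternatives were other scalings, pseudocounts of 0.5 and 10, no filter, the replicate block, fits of the compared libraries alone and leaving out each library.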

Additional observations from a re-analysis of the deposited data

Results flagged for a closer look

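Angptl8 was picked out because its fraction difference ran in opposite directions in the genotypes: the high-fat library was higher in 3 of 3 WT mice and lower in 3 of 3 KO mice. The KO minus WT difference of the high-fat minus low-fat log2 values was -0.38. The limma interaction was not called (adjusted p = 1 with and without the replicate block). In 3 of the 6 mice the difference lay within 1 counting SE of 0: 0.1 (SE 0.117) in WT mouse 1, 0.05 (SE 0.103) in WT mouse 3 and -0.06 (SE 0.0818) in KO mouse 2. Of the tested genes, 93 of 16563 showed the same opposition in every mouse.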

How the results depend on the processing

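Of 260 values of the 9 genes under other settings that kept all libraries of the comparison, 256 kept their direction and side of the threshold. Over both genotypes, 1731 genes were called with the replicate block against 954 without it (1101 higher and 630 lower, against 826 and 128). The block gave 169 called genes in WT against 0 and 354 in KO against 148, while a pseudocount of 10 gave 1 in WT. At an unadjusted limma p under 0.05, 1902 genes differed in WT. With only the compared libraries fitted, 0 genes were called in KO and 0, not even Ptprk (limma adjusted p = 0.469), for KO against WT in high-fat libraries, and Angptl2 in KO had a limma adjusted p of 0.0594. Under the deposited scaling alone the Angptl8 fraction difference was 0.01. Without both mice numbered 1 and with the block, that of Fgf21 was 0.02. The cause of these changes was not tested. With 1 library left out and no block, Fgfr1, Lpl and Pklr were called without either of 2 libraries, and Pdk4 and Plin4 without 1 (limma adjusted p = 0.0243 to 0.0422).

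Leaving out each library gave 606 to 1125 called genes over both genotypes, 0 to 1 in WT and 0 to 80 in KO. Leaving out each mouse with the block, an alternative added after seeing the data, gave 620 to 2951. Of 312 values of the 9 genes with 1 library left out, 263 kept direction and call and 44 changed direction, none of these being called. Fraction differences ranged over both genotypes from -0.44 to 0.23 for Fgf21, -0.21 to 0.33 for Angptl4 and -0.7 to 0.55 for Angptl8, in WT from -1.15 to 1.35 for Angptl8, and in KO from -0.06 to 0.42 for Angptl6 and -0.57 to 0.04 for Angptl8. KO against WT in low-fat libraries ranged from -0.79 to 0.35 for Fgf21, -0.14 to 0.87 for Gdf15, -0.13 to 0.79 for Angptl4, -0.45 to 0.04 for Angptl6, -1.46 to 0.5 for Angptl8 and -0.01 to 0.15 for Selenop. In high-fat libraries it ranged from -0.67 to 0.58 for Fgf21, -0.06 to 0.54 for Gdf15, -0.07 to 0.29 for Angptl2, -0.14 to 0.71 for Angptl4, -1.86 to 0.17 for Angptl8 and -0.01 to 0.39 for Fetub. The interaction ranged from -0.56 to 0.46 for Gdf15, -0.54 to 0.02 for Angptl6 and -1.61 to 0.89 for Angptl8.

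WT and KO mice share only a number, and their same-numbered libraries deviated together at a mean r of 0.315 in low-fat and 0.233 in high-fat libraries (-0.156 and -0.111 for other numbers). The high-fat mean did not hold for each number, with an r of 0.49, -0.173 and 0.381 for numbers 1 to 3. Among high-fat pairs of other numbers, WT mouse 3 with KO mouse 2 had an r of 0.47. The replicate block left the count of KO against WT calls at 1 in each fraction. Depth limits Angptl2 and Fgf21 most, whose lowest values were 10 and 20 reads per 20 M.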

Other observations

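Genes of the liver zones differed between the fractions, apart from the secreted factors. Of 10 genes of pericentral hepatocytes, all tested, 10 had positive log2 differences and 4 were called higher in the high-fat fraction (median 0.729), where 4.99% of all tested genes were, and 8 with a term for each mouse, where 6.65% were. Cyp1a2, a cytochrome P450 of the pericentral zone, rose by 0.8 (limma adjusted p = 0.005), and Lgr5, a receptor of Wnt-active pericentral cells, rose by 1.09 (limma adjusted p = 0.0151). Cyp1a2 read 5145 ± 112 and 9034 ± 1200 (SD, n = 3) reads per 20 M in WT low-fat and high-fat libraries, and 4707 ± 1180 and 8897 ± 1420 in KO. Of 10 periportal genes 10 had negative differences and 5 were called lower (median -0.572), where 0.773% of all tested genes were. With that term 7 were called lower, where 3.8% of all tested genes were. Hal, which breaks down histidine, fell by 0.73 on the log2 scale (limma adjusted p = 0.0047), and Aldh1b1, a mitochondrial aldehyde dehydrogenase, fell by 1.17 (limma adjusted p = 0.00298).

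Of 8 lipid droplet genes 7 were tested, with 4 positive and 3 negative log2 differences between fractions (median 0.183). Of the 7, 1 was called higher, where 4.99% of all tested genes were. It was Fitm1, a droplet formation protein, which rose by 1.08 (limma adjusted p = 0.0394). That call was lost without any 1 of 10 of the 12 libraries (limma adjusted p = 0.06 to 0.0915). With a term for each mouse 3 were called higher, where 6.65% of all tested genes were. Among the 3 was Plin4, a droplet coat protein, at 0.88 (limma adjusted p = 0.114 without the term and 0.0195 with it). Of 10 genes of the insulin and carbohydrate response 0 were called (limma, 1 lower and 0 higher at an unadjusted p under 0.05). With that term 4 were called lower, where 3.8% of all tested genes were. The 4 included Pklr, the liver pyruvate kinase, at -0.5 (limma adjusted p = 0.109 and 0.0131), and Srebf1, a regulator of fat synthesis, at -0.34 (limma adjusted p = 0.411 and 0.0296). Markers of cholangiocytes (2 of 6 tested) and lymphocytes (2 of 5) had 0 calls, with 1 and 0 at an unadjusted limma p under 0.05. Adding a term for each mouse, 1 cholangiocyte marker was called lower, where 3.8% of all tested genes were. It was the transcription factor gene Sox9, at -0.61 (limma adjusted p = 0.111 without the term and 0.0031 with it), also called lower in WT and in KO mice alone. Of the mesothelial markers 0 of 4 reached the filter.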
